A study of Caenorhabditis elegans with 2 samples.

Results

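The TOR pathway genes described here are the 6 named genes let-363, daf-15, rsks-1, raga-1, ragc-1 and rheb-1, taken by name out of 19973 protein-coding genes of the nuclear annotation. Binding of PHA-4, a FoxA-family transcription factor, was read at each of them from peak lists of chromatin immunoprecipitation with sequencing (ChIP-seq). The material was whole C. elegans embryos of mixed stages and both sexes, from strain OP37, which carries unc-119(ed3) on chromosome III and the integrated transgene wgIs37 supplying eGFP-tagged PHA-4. All libraries belong to 1 group of 2 biological replicates, with no second condition or genotype to compare. Each replicate came from its own biosample, the labels name pha-4 as the antibody, and binding in all cell types of the embryo was measured together. Peak lists hold no expression values, so the labelled stage could not be checked against marker genes.

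Every entry with its highest point (summit) between 2000 bp upstream of a member's start and the member's 3' end was taken from 4 lists on the ce11 build. There were 30000 entries in each replicate list, 21931 in the pooled list, for which the replicates were combined, and 2177 in the set that passed a threshold on the irreproducible discovery rate (IDR). The pooled list is labelled as peaks and background, the input to the IDR step, so an entry found only there need not be binding. This thresholded set held the same entries as the top 2177 of the pooled list by signal, and its signals ran from 35.9 to 348. Signal is the peak caller's own value for each entry and is not scaled between lists, so strength across lists is given as a rank, with 1 the strongest. The read depth of the libraries is unknown, and with 2 replicates of 1 group no test between samples was made.

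TOR is a protein kinase that links nutrients to growth. In the complex TORC1 it works with the scaffold Raptor, and TORC1 is switched on at the lysosome by the small GTPase Rheb and by a pair of Rag GTPases, of the RagA type and the RagC type, that signal amino acids. Active TORC1 phosphorylates S6 kinase and promotes translation while holding back autophagy. In C. elegans, let-363 encodes TOR, daf-15 Raptor, rheb-1 Rheb, raga-1 and ragc-1 the Rag GTPases, and rsks-1 S6 kinase. Lower TOR or S6 kinase activity lengthens worm life, and genetic work has placed pha-4, which specifies the pharynx and is needed for the long life of diet-restricted worms, in opposition to this pathway.

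PHA-4 peaks above the threshold lay at 4 of the 6 genes: rheb-1, rsks-1, ragc-1 and let-363. Over all protein-coding genes, 12.9% had a thresholded entry in a window built the same way. The peak at rheb-1 was the strongest of them, with a pooled signal of 82.9 at rank 424. Those at rsks-1 (57.6, rank 968), ragc-1 (48.0, rank 1381) and let-363 (44.3, rank 1591) followed. The Raptor gene daf-15 had a weaker pooled entry at its 5' end that missed the threshold, and the RagA-type gene raga-1 had no pooled entry in its window. The peaks at ragc-1 and rheb-1 were the 2 that lay in the gene's own promoter, taken as 1000 bp upstream to 200 bp downstream of an annotated 5' end, where 9.16% of all protein-coding genes had one. The peaks at let-363 and rsks-1 lay more than 1000 bp upstream of the gene.

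Sequences are shown for the 201 bases centred on the summit of the strongest pooled entry of 4 of the members. They are the windows in which motifs were sought, and they come from the RefSeq copy of the WBcel235 assembly (the same as ce11). Each is written 5' to 3' on its gene's coding strand. Capitals mark matches, on either strand, to TRTTKRY, the PHA-4 consensus (R is A or G, K is G or T, Y is C or T), or to GAGAGA, which reads TCTCTC when it lies on the other strand. The windows are chrIII:9456174-9456374 for rheb-1 (minus strand), chrIV:11604991-11605191 for ragc-1 (minus strand), chrIII:11243527-11243727 for rsks-1 (plus strand) and chrIV:9386108-9386308 for daf-15 (plus strand).
rheb-1: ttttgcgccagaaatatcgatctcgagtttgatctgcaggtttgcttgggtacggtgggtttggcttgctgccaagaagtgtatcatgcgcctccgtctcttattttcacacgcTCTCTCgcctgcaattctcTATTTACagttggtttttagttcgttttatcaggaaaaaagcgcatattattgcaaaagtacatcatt
ragc-1: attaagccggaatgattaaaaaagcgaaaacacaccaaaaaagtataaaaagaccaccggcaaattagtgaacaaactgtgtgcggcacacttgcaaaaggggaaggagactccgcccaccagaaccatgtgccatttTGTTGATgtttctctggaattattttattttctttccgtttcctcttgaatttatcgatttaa
rsks-1: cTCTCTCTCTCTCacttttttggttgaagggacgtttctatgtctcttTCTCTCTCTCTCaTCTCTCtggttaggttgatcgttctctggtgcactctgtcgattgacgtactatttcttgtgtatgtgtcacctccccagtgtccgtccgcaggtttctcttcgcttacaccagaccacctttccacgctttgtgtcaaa
daf-15: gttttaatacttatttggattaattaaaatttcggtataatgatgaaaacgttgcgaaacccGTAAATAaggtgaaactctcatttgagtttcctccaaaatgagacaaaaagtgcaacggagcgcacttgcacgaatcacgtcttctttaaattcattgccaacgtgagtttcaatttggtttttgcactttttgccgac

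The printed windows differed in which motif they held. Those of rheb-1, ragc-1 and daf-15 each had a single match to TRTTKRY, with its middle base 36 bp downstream of the summit at rheb-1, 41 bp downstream at ragc-1 and 35 bp upstream at daf-15, along the gene's direction. The word was TATTTAC at both rheb-1 and daf-15, on opposite strands of the gene, and TGTTGAT at ragc-1. The rsks-1 window had no match to TRTTKRY but 9 matches to GAGAGA, most of them overlapping the next, and the rheb-1 window had 1. The let-363 window had no match to either.

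A match to TRTTKRY was thus present in 3 of the 5 windows of members with a pooled entry, against 61.1% of all thresholded windows and 52.3% of all pooled windows of the same length. GAGAGA was present in 2 of the 5, against 47.7% of thresholded and 21.4% of pooled windows. The stricter FoxA-type motif TGTTTRC was in 0 of the 5, against 20.6% and 10.7%. The word TATTTAC stood in 6.48% of thresholded windows and TGTTGAT in 4.09%. The GC content of the windows was 42.3% at rheb-1, 38.3% at ragc-1, 47.3% at rsks-1, 35.8% at daf-15 and 31.3% at let-363, and the median over all thresholded windows was 44.8%.

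**Figure D1:**
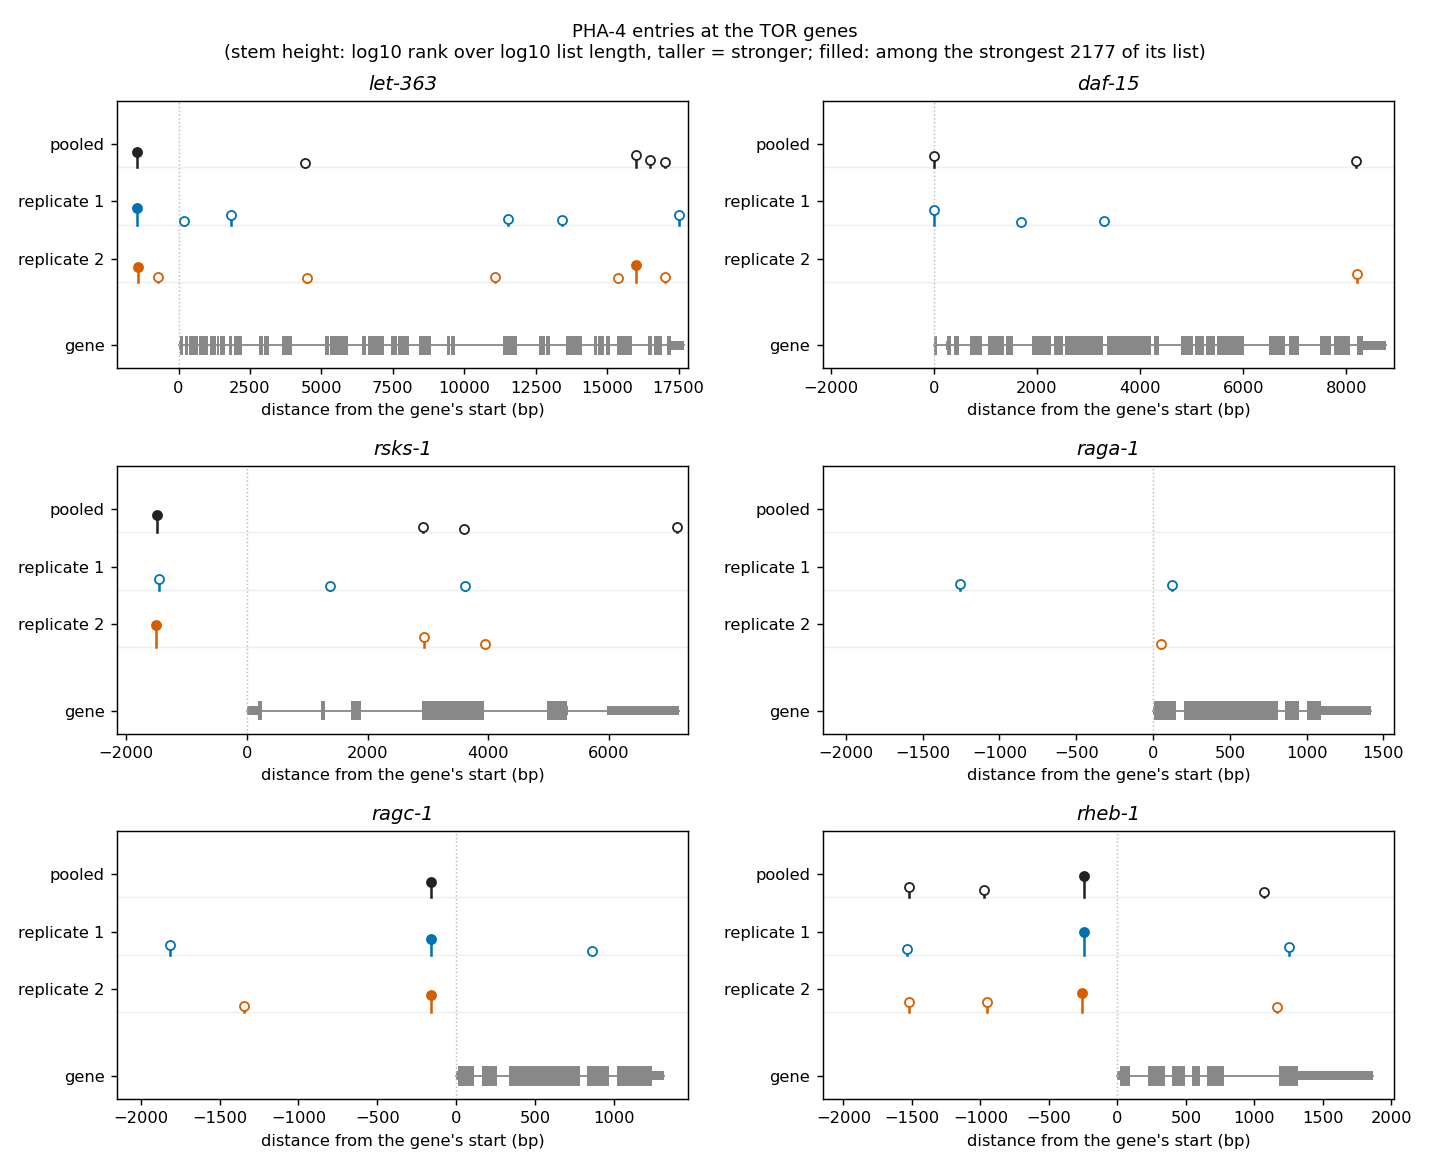
Entries in the window of each TOR gene, plotted by distance of the summit from the gene's start in bp, with exons in grey (coding parts thicker). Stem height gives log10 rank over log10 list length, and filled heads are among the strongest 2177 entries of their list. The strongest entries of ragc-1 (-158 bp) and rheb-1 (-244 bp) lie just upstream of the gene, those of let-363 (-1468 bp) and rsks-1 (-1493 bp) farther out, and raga-1 has weak replicate entries and no pooled entry.

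The kinase gene let-363 spans chromosome I from 5245743 to 5263424 on the plus strand, the longest of the members at 17682 bp. Its thresholded entry, at 5244143 to 5244406, had a pooled signal of 44.3, with 22.1 in replicate 1 (rank 1372) and 22.5 in replicate 2 (rank 2060). Both replicates placed a peak among their 2177 strongest at this site. Its summit was 1468 bp upstream of let-363 but 8 bp upstream of the 5' end of mrpl-47, a gene for a protein of the large mitochondrial ribosomal subunit. mrpl-47 lies on the same strand and ends 341 bp before let-363 begins. Only 1.93% of thresholded summits lay within 8 bp of a protein-coding 5' end. The replicate 2 summit lay 32 bp from the pooled one, 24 bp inside mrpl-47, so 8 bp is finer than the spread between replicates. Whether the site acts on mrpl-47, on let-363 or on both was not tested.

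A second site inside let-363 was strong in 1 replicate. It lay in an intron at 5261622 to 5261885, 16011 bp from the start, with a pooled signal of 30.7 at rank 2746, below the threshold. Replicate 2 had a signal of 29.4 there (rank 1264), stronger by rank than its entry at mrpl-47, and replicate 1 had no overlapping entry. Of the 2177 pooled entries that follow the thresholded set in rank, 6.02% had no replicate 1 entry. The other 3 pooled entries in let-363 were weaker. One, with a signal of 10.7 at rank 16289, lay in the coding sequence of B0261.5, a gene inside a let-363 intron. Replicate 2 had a weak entry at that site (6.18, rank 23723). One, with 14.7 at rank 8319, lay in the coding sequence of let-363 itself, where neither replicate had an overlapping entry. The last, with 11.7 at rank 13499, lay in an intron and in the promoter window of vep-1, and replicate 2 placed a weak entry there (7.27, rank 17982).

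daf-15 encodes Raptor, the scaffold that brings substrates to TOR, and lies on chromosome IV from 9386208 to 9394979 on the plus strand. Its strongest pooled entry, at 9386076 to 9386339, had its summit exactly on the most upstream annotated 5' end. The coding sequence begins at that same base, with no annotated 5' untranslated region, so this end may not mark where transcription starts. The signal was 24.4 (rank 3732), or 0.68 of the lowest thresholded signal. Replicate 1 placed an entry there with a signal of 15.1 (rank 2443), 9 bp away, and replicate 2 had none. All other annotated daf-15 transcripts begin 242 to 249 bp farther downstream. Of the 2177 pooled entries next below the thresholded set, 2.99% lacked a replicate 2 entry. The entry of replicate 2 in this window lay at the other end of the gene, 8208 bp from the start, with a signal of 10.5 (rank 8563), where the pooled list had 12.7 and replicate 1 had none. The replicates therefore had no overlapping entries at daf-15.

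rheb-1, the Rheb GTPase gene and the direct activator of TORC1, lies on chromosome III from 9454163 to 9456030 on the minus strand. Its thresholded entry, at 9456142 to 9456405, had a pooled signal of 82.9, with 41.5 in replicate 1 (rank 369) and 38.0 in replicate 2 (rank 715). Both replicates ranked it above every other entry at a TOR gene except that of rsks-1 in replicate 2. The pooled signal was 2.31 times the lowest in the thresholded set and higher than the strongest entry of 97.2% of protein-coding genes, those without any entry included. The summit lay 244 bp upstream of rheb-1 and 334 bp upstream of spk-1, an SR protein kinase gene that runs the other way from a start 578 bp off. The peak thus fell in a shared, divergent promoter, and which of these genes it serves was not tested.

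3 weaker pooled entries lay near rheb-1. The strongest was 1522 bp upstream of rheb-1, in the 5' untranslated region of spk-1 and 24 bp inside an annotated 5' end of that gene, with a pooled signal of 21.7 (rank 4359), 5.59 in replicate 1 and 13.6 in replicate 2. Another lay in an spk-1 intron, 974 bp upstream of rheb-1, with a pooled signal of 14.4. Replicate 2 had 12.5 there and replicate 1 had no entry. The last lay in a rheb-1 intron, in the promoter window of F54C8.7, with a pooled signal of 11.5 (rank 13814).

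The Rag genes differed from each other. ragc-1, of the RagC type, lies on chromosome IV from 11603613 to 11604933 on the minus strand. Its thresholded entry, at 11604959 to 11605222, had a pooled signal of 48.0, with 19.2 in replicate 1 (rank 1731) and 29.6 in replicate 2 (rank 1254). The pooled and replicate summits lay within 2 bp of one another, the closest placing among the 4 genes. The summit was 158 bp upstream of ragc-1 and 163 bp upstream of Y24F12A.1, which starts 321 bp away on the other strand, so this peak too stood near the middle of a divergent promoter. Of all thresholded summits, 21.8% lay in the promoter windows of 2 or more genes.

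raga-1, of the RagA type and the partner of ragc-1 in the Rag pair, lies on chromosome II from 11301359 to 11302776 on the plus strand. No pooled entry fell in its window, whereas 58.2% of protein-coding genes had one. Replicate 1 had entries with signals of 5.01 (rank 19529), 124 bp into the gene, and 5.73 (rank 14892), 1259 bp upstream. Replicate 2 had 1 with 5.45 (rank 28459), 53 bp into the gene, which overlapped the replicate 1 entry there. Replicate entries of any rank were found at all 6 members, as at 71.3% of protein-coding genes in replicate 1 and 68.8% in replicate 2, so their presence at raga-1 is not distinctive. The raga-1 gene begins 99 bp after the end of saps-1 on the same strand. The pooled entry nearest to its start lay 2198 bp upstream, outside the window, with a signal of 11.4 (rank 14114). At this unknown depth, weak binding at raga-1 could not be told from background, which does not show that it is absent.

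rsks-1 encodes S6 kinase, the TORC1 substrate that carries the signal to the translation machinery. It lies on chromosome III from 11245120 to 11252281 on the plus strand. Its thresholded entry, at 11243495 to 11243758, had a pooled signal of 57.6, with 9.71 in replicate 1 (rank 4763) and 47.3 in replicate 2 (rank 422). Replicate 2 ranked this site first among its entries at TOR genes, while replicate 1 left it outside its 2177 strongest. The larger rank was 11.3 times the smaller, a gap reached by 3.67% of the 2153 thresholded entries found in both replicates. At let-363, ragc-1 and rheb-1 the ratio was 1.5, 1.38 and 1.94, below the median of 2.03 over these entries.

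The rsks-1 peak stood apart from any promoter. Its summit was 1493 bp upstream of rsks-1, and no other protein-coding 5' end was nearer. Of all thresholded summits, 24.5% lay as far or farther from a 5' end, and 37.4% lay in no promoter window. The next gene upstream was aakb-2, a beta subunit gene of AMP-activated kinase, which ends 5916 bp before rsks-1 on the same strand. The other 3 pooled entries of rsks-1 were weak, at ranks 12322, 12854 and 19516. The strongest of these, with a signal of 12.2, was in its 3' untranslated region, 141 bp upstream of Y47D3A.32. The others lay in coding sequence with 11.9, where replicate 2 had 12.5, and with 9.79, where replicate 1 had 4.5.

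**Figure D2:**
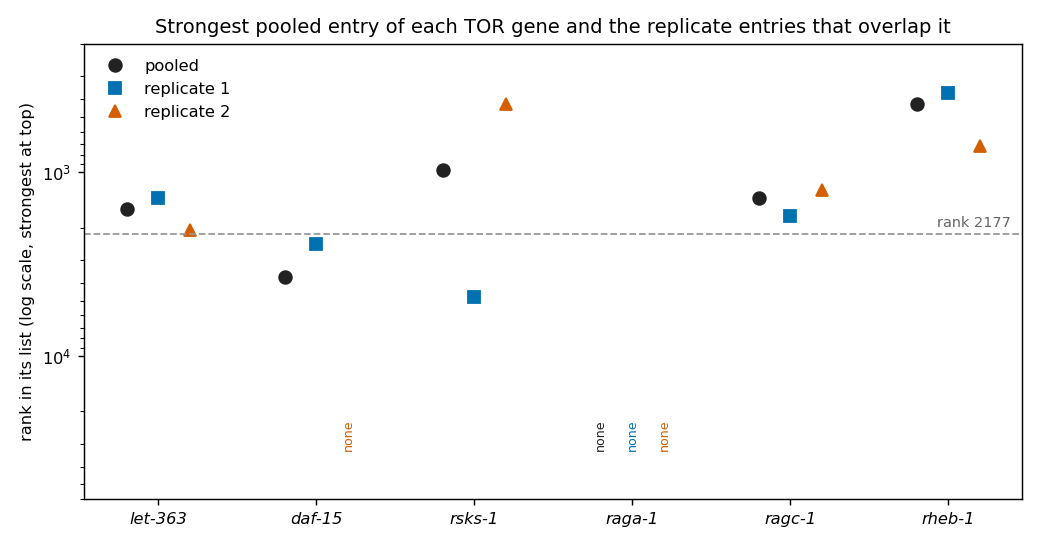
Rank of the strongest pooled entry of each TOR gene (circles) and of the replicate 1 (squares) and replicate 2 (triangles) entries that overlap it, on a log axis with the strongest at the top. The dashed line is rank 2177, the end of the thresholded set. rheb-1 is high in all 3 lists, rsks-1 is at rank 422 in replicate 2 and 4763 in replicate 1, daf-15 has no replicate 2 entry, and raga-1 has none to compare.

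Each replicate alone gave nearly the same genes. Among the 2177 strongest entries of replicate 1 were peaks at let-363, ragc-1 and rheb-1, 3 of the 6 members, against 13.3% of protein-coding genes. Among those of replicate 2 were peaks at these and at rsks-1, 4 of the 6, against 12.0%. The strongest pooled entry of 4 of the 5 members with one overlapped an entry in both replicates, and daf-15 was the exception. Of all thresholded entries, 98.9% overlapped an entry in both.

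**Figure D3:**
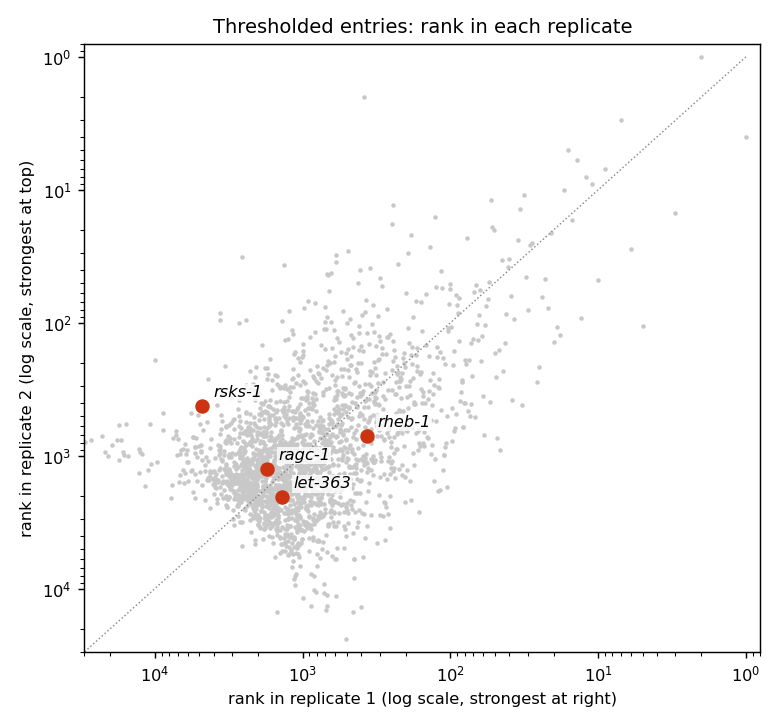
Rank in replicate 1 (x) against rank in replicate 2 (y) for the 2153 thresholded entries with an entry in both replicates, on log axes with the strongest at the top right. Red points are the 4 TOR genes. rheb-1, ragc-1 and let-363 lie near the dotted line of equal rank, and rsks-1 lies far above it, at rank 4763 in replicate 1 and 422 in replicate 2.

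Window length bears on these counts, since a longer gene offers more room for a summit. Member windows ran from 3321 to 19682 bp with a median of 6515 bp, against a median of 4027 bp over all protein-coding genes. Of the 3 members with windows under 4000 bp (raga-1, ragc-1 and rheb-1), 2 had a thresholded entry, against 9.45% of genes with such windows. Of the 3 with windows over 8000 bp (let-363, daf-15 and rsks-1), 2 had one, against 23.4%. Per kb of window, the members held 0.0796 thresholded entries and all protein-coding genes 0.0272. In the pooled list the densities were 0.319 and 0.231 entries per kb. These length limits were set after the values were seen.

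The protein-coding genes most like rheb-1 were sought by the ranks of their strongest window entries in the pooled list and both replicates. Genes that share the entry of rheb-1 were left out of this ranking, and spk-1 is such a gene. Of 9527 genes with an entry in all 3 lists, the nearest in log10 rank were F48A9.2 (distance 0.0337), figl-1 and hpo-18 (0.0653 each). F48A9.2 had ranks of 371 in replicate 1, 767 in replicate 2 and 438 in the pooled list. figl-1 and hpo-18 shared the same ranks, 340, 748 and 477. Equal ranks in all 3 lists point to the same entries in both windows, so these genes are not separate cases.

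The other genes of the pathway were taken as 42 genes in 6 roles, chosen with earlier results of these data known. Of these, 19 had a thresholded entry in the window (45.2%, against 12.9% of all protein-coding genes), and 12 had one in the promoter window (28.6%, against 9.16%). Their windows had a median of 6096 bp. The median of the strongest pooled signal was 48.0 over the 5 members with an entry, 36.5 over the 38 other pathway genes with one, and 16.2 over all 11631 protein-coding genes with one. These values were not adjusted for window length, which had a median of 6515 bp over the members and 4027 bp over all protein-coding genes.

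Of the 3 partners of TOR in its complexes 0 had a thresholded entry. rict-1, which encodes Rictor of the second TOR complex, had a pooled signal of 20.2, mlst-8, the Lst8 gene, had 12.8, and sinh-1 had no pooled entry. Of the 7 genes that pass on amino acid levels at the lysosome 1 had a thresholded entry (14.3%, close to the 12.9% of all protein-coding genes), the folliculin gene flcn-1. Its strongest pooled signal was 57.4 (rank 977), 8497 bp into the gene.

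In the insulin branch, which feeds into TOR, 4 of 8 genes had a thresholded entry in the window and 1 of 8 (12.5%) had one in the promoter window, where the share was 9.16% over all protein-coding genes. The median window of this branch was 7905 bp, against 3946 bp for the lysosomal genes. The strongest pooled signals were 74.7 at akt-1, which encodes the kinase Akt, 71.6 at pdk-1, the kinase that activates it, 50.7 at the insulin receptor gene daf-2 and 48.1 at akt-2. The entry of akt-2 was the only one of these 4 in a promoter window. In the branch of AMP-activated kinase, an energy sensor that restrains TORC1, 5 of 11 genes (45.5%) had a thresholded entry in the window. The share over all protein-coding genes was 12.9%. These genes were aakb-2 (51.2, in a promoter shared with Y47D3A.14), aakg-5 (50.9), the catalytic subunit gene aak-2 (50.3), aakg-1 (48.0) and aakg-4 (42.0). In promoter windows the count was 4 of 11 (36.4%), against 9.16% of all protein-coding genes. The median window of this branch was 6101 bp.

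On the output side of TOR, 6 of 9 translation genes (66.7%) had a thresholded entry in the window and 5 (55.6%) had one in the promoter window. Over all protein-coding genes these shares were 12.9% and 9.16%. drr-2, an eIF4H-type initiation factor gene, led with a pooled signal of 174 (rank 30), 165 bp upstream of its start and in a promoter shared with set-16. The others were rps-6 (67.6), which encodes the ribosomal protein that S6 kinase phosphorylates, inf-1 (50.1), which encodes eIF4A and whose entry lies in the promoter window of flap-1, the cap-binding protein genes ife-4 (42.2) and ife-2 (39.8), and the eIF4G gene ifg-1 (42.2). The entry of rps-6 also lay in the promoter window of usp-3, and that of ifg-1 in the promoter window of M110.3. Of 4 genes for autophagy and transcription, 3 had a thresholded entry in the window: unc-51 (62.2), the Atg1 kinase gene, skn-1 (54.6), the Nrf-type factor gene, and hlh-30 (46.9), the TFEB-type factor gene. In promoter windows this count was 1 of 4. The strongest at daf-16, the FoxO gene, was 33.2, just under the threshold. The median window was 3325 bp for the translation genes and 16752 bp for the autophagy and transcription genes, and of all protein-coding genes with windows over 8000 bp, 23.4% had a thresholded entry. With so few genes per role, differences between roles were not tested.

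**Figure D4:**
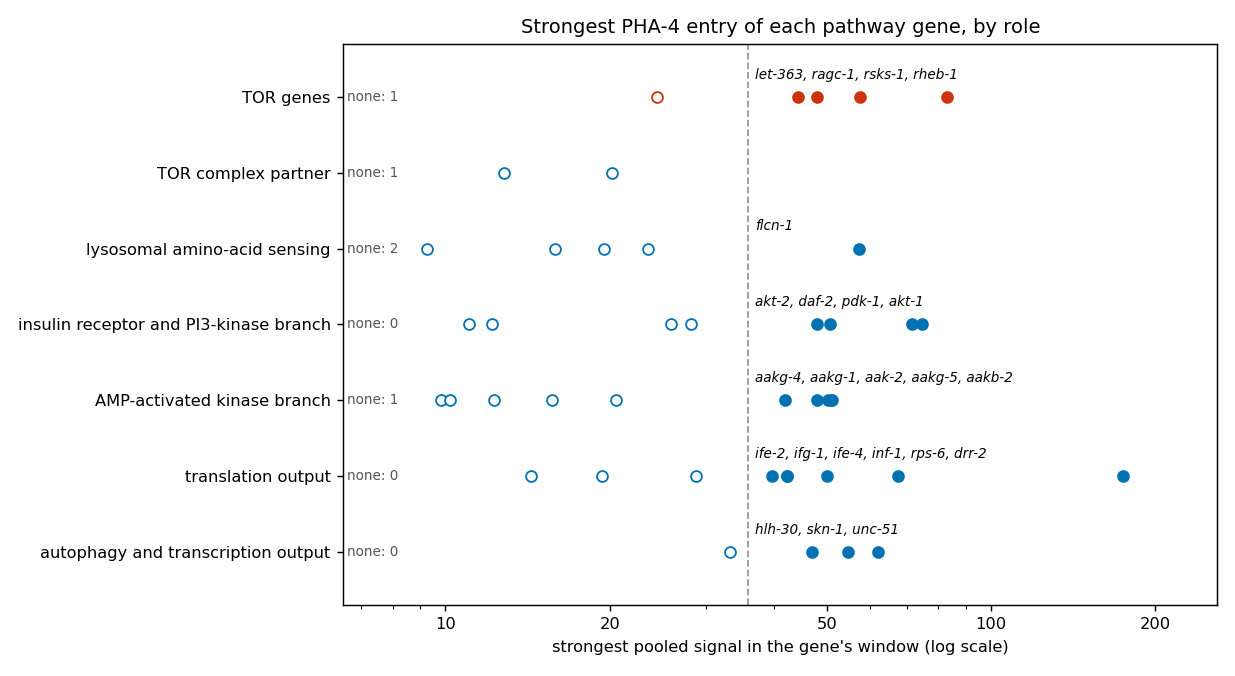
Strongest pooled signal in the window of each gene, on a log axis, for the TOR genes (red) and the other pathway genes by role (blue). The dashed line is the lowest thresholded signal, 35.9, filled points lie above it and are named in order of signal, and the number of genes with no pooled entry stands at the left. drr-2, at 174, lies above all other genes, and no complex partner passes the line.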

How the data were processed

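Per the labels' file listing, the authors made a peak list for each replicate and for the pooled replicates, against 2 control files on ce11, and took the thresholded set from these. Not given in the sources used here are the aligner, the peak caller and the IDR threshold. The deposited lists give each entry's signal and its -log10 q as the authors' caller wrote them. Ranks within a list used signal only. Weak pooled entries had a small -log10 q, such as 0.065 at rank 16289 in let-363. The thresholded entry at rheb-1 had 3.46. The ce10 lists were not used here, since no annotation of that build was at hand.

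Genes came from the Ensembl release 115 annotation of WBcel235, whose chromosomes hold every listed position. The 4 lists were searched by summit, and the strongest overlapping replicate entry (1 bp or more) was paired with each pooled entry. The replicate lists shared 0 identical entries. Motifs were sought on both strands within 100 bp of the summit. The search by position was tested on simulated entries, and the motif search on simulated sequences with GAGAGA only. Searches for TRTTKRY and TGTTTRC were not tested in this way. Named genes were the members, the other pathway genes with a thresholded entry or, for a role with none, the gene with the strongest pooled entry (mlst-8, sinh-1 and daf-16 were added after their values were seen), neighbours whose promoter window held a summit, and the 3 genes most like the leading member. The gene epg-1 was asked for and not matched. Members, lists and settings were chosen with earlier results of these data known. Alternatives were other windows, interval overlap, a stricter threshold, the nearest 5' end, each replicate alone, other overlap rules and a motif window of 50 bp. Tools were Python 3.11.15, numpy 2.4.6, pandas 2.3.3 and matplotlib 3.10.9.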

Additional observations from a re-analysis of the deposited data

How the results depend on the processing

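With windows reaching 1000 or 500 bp upstream, or with promoter windows only, 2 members in place of 4 had a thresholded entry, namely ragc-1 and rheb-1. The strongest 1088 of the thresholded entries also left 2, rsks-1 and rheb-1. With promoter windows only, 3 members had a pooled entry in place of 5. The count of other pathway genes with a thresholded entry was 12 with promoter windows only and 7 among the strongest 1088, in place of 19. Over all protein-coding genes, 9.16% had a thresholded entry in the promoter window. Shares over all genes were not computed for the shorter windows, the strongest 1088 entries or pooled entries in promoter windows. The falls in these counts therefore cannot be read as particular to these genes. Giving each summit to the nearest 5' end left 3 members, without let-363. With each replicate left out in turn, the count of members ran from 3 to 4 in the strongest 2177 entries and was 6 in both full lists. Over all protein-coding genes, the share for the strongest 2177 entries was 13.3% in replicate 1 and 12.0% in replicate 2. For the full lists it was 71.3% and 68.8%. The count of other pathway genes ran from 16 to 19, and the rank of the entry at rheb-1 ran from 369 to 715. Without replicate 1 the leading entry was that of rsks-1, at rank 422, and not that of rheb-1. With windows of 1000 bp upstream the strongest pooled entry fell to rank 2746 at let-363 and 12322 at rsks-1, since the upstream sites then lie outside. The count of windows with TRTTKRY and that of entries shared by both replicates did not change under their alternatives. Within 50 bp of the summit, TRTTKRY was in 42.5% of all thresholded and 33.0% of all pooled windows. Within 100 bp these shares were 61.1% and 52.3%. No paired analysis was possible because all samples form 1 group. The pooled list includes background by its label and depth is unknown, so entries near the end of a list cannot be told from background.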
